A study of Saccharomyces cerevisiae with 21 samples.

Results

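The 8 genes described here encode the enzymes that turn pyruvate into ethanol in Saccharomyces cerevisiae: the pyruvate decarboxylases PDC1 (YLR044C), PDC5 (YLR134W) and PDC6 (YGR087C), and the alcohol dehydrogenases ADH1 (YOL086C), ADH2 (YMR303C), ADH3 (YMR083W), ADH4 (YGL256W) and ADH5 (YBR145W). They were listed by gene identifier and are 8 of the 6692 genes counted and 8 of the 6254 that passed the filter on low counts. Polyadenylated RNA was sequenced from 21 libraries, 3 biological replicates in each of 7 groups. The question was how transcription changes when Sth1, the ATPase of the chromatin remodeller RSC, and the general regulatory factor Rap1 are removed, alone or together.

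All strains were MATa derivatives of BY4741 grown in YPD, a rich medium with glucose, and all carried the RPB3-3xFLAG allele of an RNA polymerase II subunit. The WT group had neither a degron tag nor the osTIR1 ubiquitin ligase gene and received no treatment. The STH1-AID, RAP1-AID and, with both, STH1-AID RAP1-AID strains carried STH1, RAP1 or both genes fused to 3V5-IAA7, a tag that auxin marks for degradation, with osTIR1 expressed from the pGPD1 promoter at LEU2. The last of these is called the double-degron strain below. Each was treated in exponential growth with 500 µM indole-3-acetic acid (IAA) or with the DMSO solvent. WT cells with IAA were not analysed here, so an effect of IAA itself cannot be told apart from that of losing the tagged protein, and the DMSO against WT comparisons combine the tag, osTIR1 and DMSO. The strain labels give met15D0 for every group, but MET17 (the current name of MET15) had 2373 to 7502 reads in the libraries outside the STH1-AID strain and 1 to 16 within it, so this marker differed between strains. LEU2, the marker given for the osTIR1 insert, had 0 to 3 reads over all libraries, so the counts do not show the insert. The a-cell receptor gene STE2 had 8821 to 32561 reads, against 1 to 468 for the alpha-cell receptor gene STE3. The degron acts on protein, and the STH1 and RAP1 transcripts (6233 to 17853 and 2328 to 6758 reads) do not report it.

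Libraries held 20901972 to 29090954 reads (counted as fragments, each a read pair) on S. cerevisiae genes and 1144357 to 3486097 on genes of S. pombe, whose cells were added as a spike-in before RNA extraction. Counts were divided by a size factor from the S. pombe counts, and these normalised counts compare RNA per spike-in. Fewer cells and less RNA per cell cannot be told apart on this scale. Replicates differed in how many S. cerevisiae reads they held per S. pombe read: STH1-AID DMSO replicate 3 stood at 22.19 against 11.82 and 12.28 for its replicates, and double-degron DMSO replicate 1 at 18.13 against 10.52 and 8.28. Each of these libraries had the highest normalised count of its group for all 8 genes, so the calls of members that rest on them are also given without them. The pathway lists were not refitted without them. Other groups spread as well: WT libraries stood at 10.65, 17.55 and 14.35, and RAP1-AID DMSO replicate 3 at 21.24 against 16.41 and 16. TMM scaling, which assumes that most S. cerevisiae genes do not change, is given for members where it changes a call or a direction, in part in the closing sections.

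Pyruvate decarboxylase splits pyruvate into carbon dioxide and acetaldehyde with thiamine diphosphate as cofactor, and alcohol dehydrogenase then reduces acetaldehyde to ethanol while it returns NADH to NAD+, which keeps glycolysis running without respiration. In yeast growing on glucose, PDC1 and ADH1 supply most of this activity and their transcripts are among the most abundant in the cell. Rap1 works with Gcr1 and Gcr2 as an activator of glycolytic and fermentative genes, and RSC keeps promoters free of nucleosomes.

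The likeness of the coding sequences limits how far reads of paralogues can be separated, so the stretches that tell them apart are shown. Coordinates are of the R64 build and each gene has a single coding exon. PDC1 (chrXII:232390-234081, minus strand), PDC5 (chrXII:410723-412414, plus) and PDC6 (chrVII:651290-652981, minus) each encode 563 residues. Capitals mark the positions at which the 3 genes differ in their first 60 coding bases:
PDC1: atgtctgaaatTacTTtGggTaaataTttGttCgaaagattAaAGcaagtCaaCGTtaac
PDC5: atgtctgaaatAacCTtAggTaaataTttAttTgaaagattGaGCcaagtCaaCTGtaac
PDC6: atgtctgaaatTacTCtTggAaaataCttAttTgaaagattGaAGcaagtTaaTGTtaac
These lie at chrXII:234022-234081, chrXII:410723-410782 and chrVII:652922-652981. PDC5 differed from PDC1 at 10 of these bases and PDC6 at 9. Over the whole coding sequence PDC5 was 87.2% and PDC6 75.0% identical to PDC1, and the longest run of identical bases was 65 and 29, shorter than the 101 bases of a read.

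ADH1 (chrXV:159548-160594, minus strand) and ADH2 (chrXIII:873291-874337, minus) both encode 348 residues and were 88.8% identical in coding sequence, with 117 differences in 1047 bases, and 93.1% identical in protein. The 60-base window with the most differences held 16, in capitals:
ADH1: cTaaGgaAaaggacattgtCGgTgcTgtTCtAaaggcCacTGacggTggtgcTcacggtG
ADH2: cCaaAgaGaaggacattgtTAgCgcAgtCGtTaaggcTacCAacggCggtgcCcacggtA
These are chrXV:159868-159927 and chrXIII:873611-873670, coding bases 668 to 727. The opposite case is a run of 189 bases, coding bases 193 to 381, that is the same in both genes (chrXV:160214-160402 and chrXIII:873957-874145) and from which a read alone cannot be assigned:
ADH1 and ADH2: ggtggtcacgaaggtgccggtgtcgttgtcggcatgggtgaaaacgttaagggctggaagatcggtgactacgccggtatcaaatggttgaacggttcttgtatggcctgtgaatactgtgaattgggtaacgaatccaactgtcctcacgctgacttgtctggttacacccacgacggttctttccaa
Of the 947 windows of 101 bases in ADH1, 164 (17.3%) matched ADH2 with at most 2 mismatches, and 164 of 947 in ADH2 matched ADH1. No window of the members other than ADH1 and ADH2 matched another member. The authors counted uniquely mapped fragments, so both genes can lose reads there, which was not measured and which the other read of a pair may limit. Any ADH1 fragment assigned to ADH2 would weigh on ADH2, since libraries held 638 to 5743 ADH1 reads for each ADH2 read. ADH2 values are uncertain for this reason. ADH3 (chrXIII:434788-435915, plus) encodes 375 residues and ADH5 (chrII:533762-534817, plus) 351, at 79.3% and 76.4% protein identity to ADH1. ADH4 (chrVII:15159-16307, plus), with 382 residues, belongs to another enzyme family and aligned to ADH1 at 24.1%.

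The Rap1 core motif ACCCNNACA was searched on both strands in the 1000 bases before each start codon. ADH1 was the single member with a match, at 654 to 662 bases before its start codon (core in capitals, chrXV:161228-161276, on the strand of the gene):
ADH1: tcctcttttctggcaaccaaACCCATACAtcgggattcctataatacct
The motif occurred in 580 of 5996 such windows (9.67%). The Gcr1 core CTTCC, on both strands, was in the windows of 7 members (not PDC5) and in 88.7% of all windows, and a run of 7 A (or 7 T) was in all 8 and in 77.2% of all windows. These are matches of letters and do not show binding.

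Per kilobase, the order of the transcripts was nearly the same in every group: PDC1, ADH1, ADH3, ADH4, PDC5, then ADH5 and ADH2, then PDC6. PDC1 ranked 5th to 9th of 6692 genes by normalised count per kilobase and ADH1 10th to 84th, whereas PDC6 ranked 6194th to 6373rd. In WT cells the mean ± SD per kilobase (n = 3 in all groups) was 267101 ± 71618 for PDC1, 185774 ± 6327 for ADH1, 16027 ± 1676 for ADH3 and 1747 ± 333 for ADH4. The lower members stood at 267 ± 81.1 for PDC5, 88.2 ± 34.3 for ADH5, 52.3 ± 24.1 for ADH2 and 3.78 ± 2.38 for PDC6. Every neighbouring pair in the order kept its place in all 3 libraries of all 7 groups, with the exception of ADH5 and ADH2. ADH5 was above ADH2 in 2 of 3 WT libraries, below it in 2 of 3 STH1-AID IAA libraries and above it in 1 of 3 double-degron IAA libraries, so in these groups the order of the pair was within the spread of the replicates. The PDC1 to ADH1 ratio per kilobase was as small as 1.02 in a WT library and as large as 3.96 in a RAP1-AID IAA library.

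**Figure D1:**
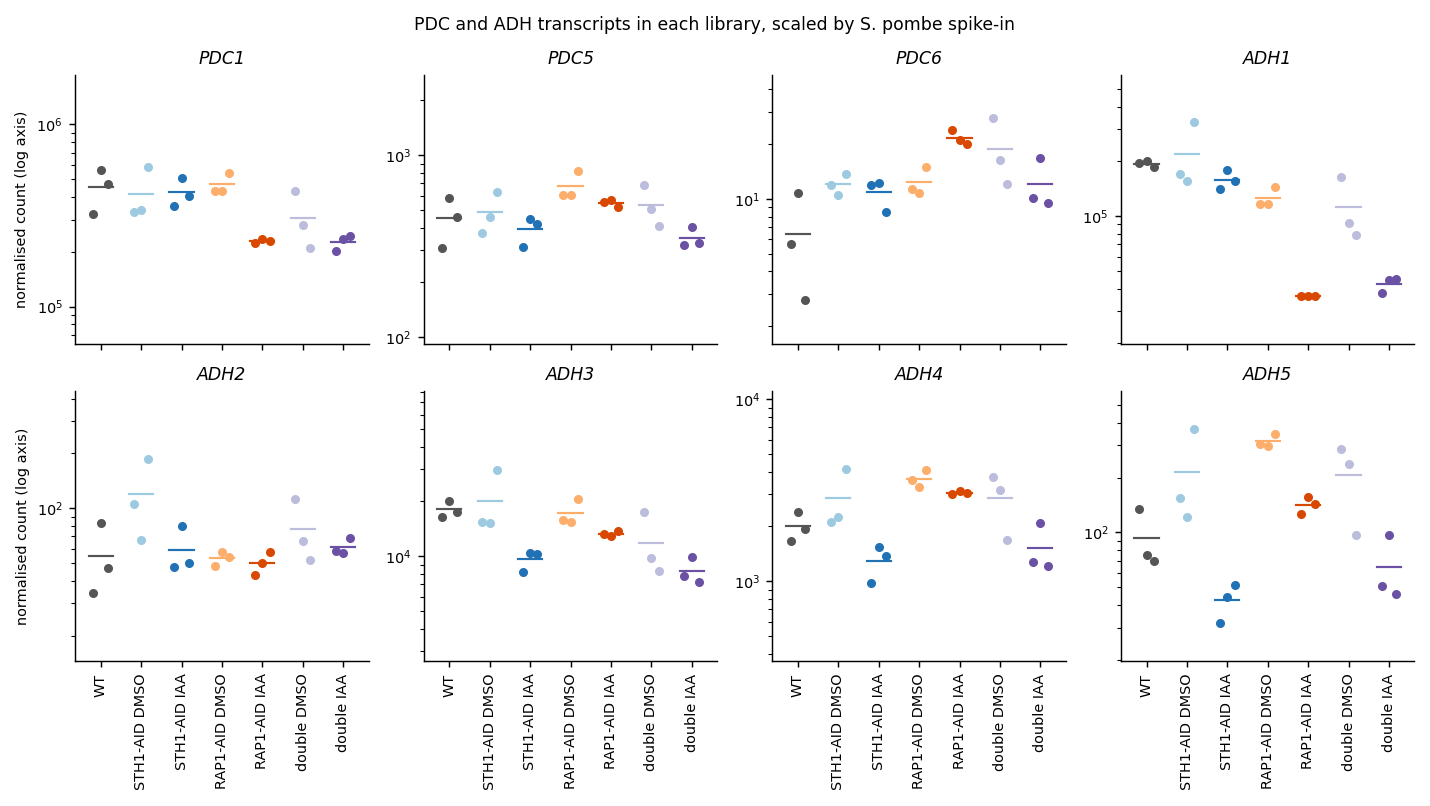
Normalised count (raw count divided by the S. pombe size factor, log axis spanning the same fold range in every panel) of each gene in each of the 21 libraries, with bars at the group means; double stands for the double-degron strain. ADH1 in the 3 RAP1-AID IAA libraries sits between 36313 and 36570, below every library of the other groups, and ADH5 is lower with IAA than with DMSO in all 3 strains, without overlap in STH1-AID and RAP1-AID.

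IAA in RAP1-AID cells lowered ADH1 most, by 3.44-fold, and also lowered PDC1 and ADH5, while the other 5 genes passed no threshold. ADH1 had 116294, 116458 and 144191 normalised counts in the 3 RAP1-AID DMSO libraries and 36313, 36569.7 and 36555 in the 3 RAP1-AID IAA libraries. The groups were far apart and the treated libraries nearly identical to each other. The log2 fold change was -1.78 ± 0.32 (SE; edgeR adjusted p = 9.89e-07), and it was -1.46 with TMM scaling (adjusted p = 5.60e-08). ADH1 encodes the main fermentative alcohol dehydrogenase. PDC1, the main pyruvate decarboxylase, had 432918, 428744 and 543342 normalised counts with DMSO and 223622, 233958 and 229861 with IAA, again without overlap (log2 fold change -1.03 ± 0.30, edgeR adjusted p = 0.0160). ADH5, a minor cytosolic alcohol dehydrogenase, had 306, 299 and 349 normalised counts with DMSO and 126, 156 and 143 with IAA, which did not overlap either (log2 fold change -1.17 ± 0.34, edgeR adjusted p = 0.0152).

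In all, 3 of 8 members were called lower by edgeR, where called means an adjusted p under 0.05 with a log2 fold change beyond 1, against 4.09% of all tested genes. With spike-in scaling no member was called higher by edgeR or DESeq2, or had an unadjusted p under 0.05 in that direction. Of all genes 0.4% were called higher. With TMM scaling ADH1 alone was called lower (3.05% of genes) and PDC6 was called higher (0.991% of genes). PDC1 and ADH5 then had log2 fold changes of -0.70 (adjusted p = 1.28e-06) and -0.84 (adjusted p = 0.0697). The median of all genes shifted by -0.26 with spike-in scaling, so relative to it ADH1 changed by -1.53, PDC1 by -0.78 and ADH5 by -0.91. Leaving out each library in turn kept the ADH1 call in 6 of 6 fits, with log2 fold changes of -1.84 to -1.67. The PDC1 and ADH5 calls were each lost without RAP1-AID DMSO replicate 3 and without RAP1-AID IAA replicate 1, 2 or 3, at log2 fold changes of -1.05 to -0.91 for PDC1 and -1.24 to -1.09 for ADH5. DESeq2 did not call ADH5 here (-1.17 ± 0.45, adjusted p = 0.172). A fit on the RAP1-AID libraries alone called all 3 genes, with edgeR adjusted p = 1.02e-12 for PDC1 and 2.13e-13 for ADH5.

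The remaining genes of the RAP1-AID comparison were not called with spike-in scaling. PDC6, a decarboxylase isozyme known from sulphur limitation, had 10, 9 and 10 raw reads with DMSO and 25, 23 and 22 with IAA, and its log2 fold change was 0.81 ± 0.51 with spike-in scaling (edgeR adjusted p = 0.784) and 1.13 ± 0.28 with TMM scaling (adjusted p = 0.00887). At these depths a change of a few reads moves the value. ADH3, the mitochondrial alcohol dehydrogenase, had 15753, 15358 and 20547 normalised counts with DMSO and 13293, 12979 and 13719.8 with IAA, a log2 fold change of -0.37. PDC5 (-0.30 with spike-in and 0.035 with TMM scaling), ADH4 (-0.25 and 0.07) and ADH2 (-0.09 and 0.22) changed sign between the scalings and passed the test under neither.

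IAA in STH1-AID cells gave another pattern: ADH5, ADH4, ADH3 and ADH2 were called lower, and PDC1, PDC5, PDC6 and ADH1 were not. ADH5 had 154, 121 and 369 normalised counts in the 3 STH1-AID DMSO libraries and 31.9, 44.3 and 51.5 in the 3 STH1-AID IAA libraries, a 5.0-fold decrease. Every treated library was below every control library. The log2 fold change was -2.32 ± 0.37 (SE; edgeR adjusted p = 1.80e-09) with spike-in scaling and -1.37 ± 0.34 with TMM scaling (adjusted p = 0.00127), and all 6 fits that left out a library kept the call (-2.61 to -1.69, the smallest without STH1-AID DMSO replicate 3).

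ADH3 had 15451, 15317 and 29906 normalised counts in the 3 STH1-AID DMSO libraries and 8179, 10366 and 10353 in the 3 STH1-AID IAA libraries (log2 fold change -1.07 ± 0.32, edgeR adjusted p = 0.00215). ADH4, known to respond to zinc limitation, had 2127, 2265 and 4161 with DMSO and 973, 1551 and 1376 with IAA (log2 fold change -1.13 ± 0.31, edgeR adjusted p = 7.02e-04). Neither gene overlapped between the groups, although STH1-AID DMSO replicate 3 stood well above its replicates for both. ADH2, the glucose-repressed isozyme that oxidises ethanol, had 106, 66.9 and 187 with DMSO and 47.8, 79.8 and 49.9 with IAA, and these overlapped (log2 fold change -1.01 ± 0.38, edgeR adjusted p = 0.0146). Without STH1-AID DMSO replicate 3 none of the 3 was called, at -0.68 for ADH3, -0.76 for ADH4 and -0.56 for ADH2. The ADH3 and ADH4 calls were also lost without STH1-AID IAA replicate 1 (-0.97 and -0.96), and the ADH2 call without STH1-AID IAA replicate 1 or 3 (-0.88 and -0.90). With TMM scaling the values were -0.16 for ADH3, -0.25 for ADH4 and -0.12 for ADH2, all under the fold minimum.

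The 4 of 8 members called lower stood against 42.7% of all tested genes called lower in this comparison and 4.69% higher, so the share of members was near the background. With TMM scaling 1 member was called lower (15.7% of genes) and 15.1% of genes higher. No member was called higher under either scaling or by DESeq2, or had an unadjusted p under 0.05 in that direction with spike-in scaling. Over all genes the median log2 fold change was -0.84. Relative to this median ADH5 was at -1.48, ADH4 at -0.29, ADH3 at -0.23 and ADH2 at -0.17, whereas ADH1 was at 0.38 and PDC1 at 0.87.

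PDC1 had 329211, 337608 and 580896 normalised counts with DMSO and 356396, 509558 and 403163 with IAA, which overlapped fully (log2 fold change 0.02 ± 0.30, edgeR adjusted p = 0.950). As a share of all reads of a library it was 1.33% to 1.38% with DMSO and 1.95% to 2.14% with IAA, and with TMM scaling its log2 fold change was 0.91 ± 0.08 (edgeR adjusted p = 3.58e-09), under the fold minimum. ADH1 had 171258, 156184 and 326967 with DMSO and 140294, 179909 and 156176 with IAA, at -0.46 with spike-in and 0.46 with TMM scaling. PDC5, a decarboxylase isozyme that rises when PDC1 is lost, had 374, 459 and 629.8 with DMSO and 315, 447 and 417 with IAA. Like ADH1, PDC5 (-0.31 and 0.55) and PDC6 (-0.15 and 0.68) changed sign between the scalings. For these genes the direction depends on whether values are read per spike-in or relative to other transcripts.

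In double-degron cells IAA lowered ADH1 and ADH5. ADH1 had 164656, 91824 and 78624 normalised counts in the 3 double-degron DMSO libraries and 37637, 44714 and 45144 in the 3 double-degron IAA libraries, without overlap (log2 fold change -1.39 ± 0.31, edgeR adjusted p = 5.79e-05). ADH5 had 286, 239 and 96.4 with DMSO and 50.7, 96.4 and 46.0 with IAA (log2 fold change -1.68 ± 0.35, edgeR adjusted p = 1.34e-05), and the ranges just touched, at 96.4 in the lowest control and 96.4 in the highest treated library. Same-numbered DMSO and IAA libraries of this strain deviated together, and with the replicate number as a block the ADH1 call was lost (-1.32 ± 0.54, edgeR adjusted p = 0.0832) while that of ADH5 was kept (-1.62 ± 0.51, adjusted p = 0.0274). Leaving out single libraries kept both calls in 6 of 6 fits, with the smallest changes without double-degron DMSO replicate 1 (-1.0023 for ADH1 and -1.38 for ADH5).

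The 2 of 8 members called lower compared with 32.6% of all genes called lower and 3.49% higher. With TMM scaling ADH5 alone was called lower (6.72% of genes, with 8.59% higher), at -1.0025, just past the fold minimum, and ADH1 was at -0.69 (edgeR adjusted p = 1.12e-04), under the fold minimum. The median of all genes was -0.67. ADH4 had 3751, 3174 and 1680.1 with DMSO and 1284, 2085 and 1209.5 with IAA, and its log2 fold change of -0.91 (edgeR adjusted p = 0.00844) was under the fold minimum. It passed without double-degron DMSO replicate 3 (-1.18) and without double-degron IAA replicate 2 (-1.20). PDC1 had 429525, 280117 and 209913 with DMSO and 201105, 235742 and 244788 with IAA, an overlapping range (without double-degron DMSO replicate 1 the log2 fold change was -0.11). PDC1, PDC5, PDC6, ADH2 and ADH3 were at -0.43, -0.61, -0.59, -0.30 and -0.52 with spike-in scaling and changed sign with TMM scaling, at 0.26, 0.044, 0.054, 0.40 and 0.18.

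**Figure D2:**
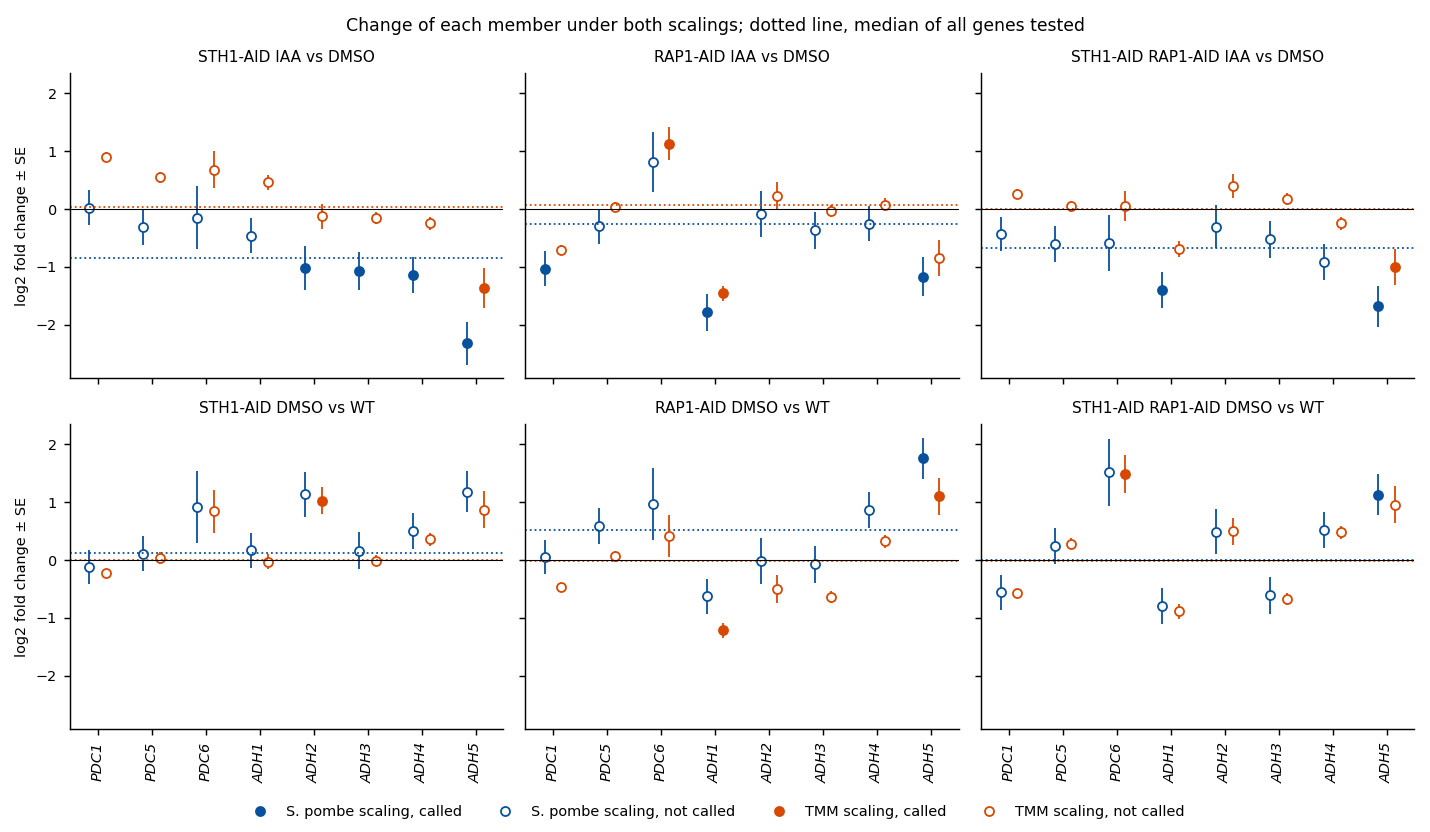
Log2 fold change ± SE of each gene in 6 comparisons, with S. pombe (blue) and TMM (orange) scaling; filled points were called, and dotted lines give the median of all genes tested under each scaling. With IAA, ADH5 is well below the median in all 3 strains under both scalings, and ADH1 in RAP1-AID and double-degron cells. PDC1 and ADH1 lie above the median with IAA in STH1-AID cells. Against WT, ADH5 lies above the median in all 3 strains, in comparisons that share their DMSO libraries with those of IAA.

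The effect of IAA was then compared between strains. It was lower in RAP1-AID than in STH1-AID cells for ADH1, by -1.33 ± 0.44 on the log2 scale (SE; edgeR adjusted p = 0.00899), and for PDC1, by -1.06 ± 0.43 (adjusted p = 0.0364). TMM scaling kept both calls, at -1.92 and -1.61. ADH5 differed the other way, by 1.15 ± 0.49 (edgeR adjusted p = 0.0488), and was not called with TMM scaling (0.52). DESeq2 called the first 2 and not ADH5 (adjusted p = 0.145). These 2 negative and 1 positive calls compare with 6.27% and 32.3% of all genes with spike-in scaling, whose median was 0.54, and with 14.7% and 17.6% with TMM scaling.

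The ADH1 difference was called in 12 of 12 fits that left out a library, from -1.74 (without STH1-AID DMSO replicate 3) to -1.14. The PDC1 difference was called in 3 of 12 (without STH1-AID DMSO replicate 3, at -1.37, STH1-AID IAA replicate 1 or RAP1-AID DMSO replicate 2), and the other 9 gave -1.11 to -0.90. The ADH5 difference was also called in 3 of 12 (without STH1-AID DMSO replicate 1 or 2 or STH1-AID IAA replicate 3), and fell to 0.53 without STH1-AID DMSO replicate 3. ADH2, ADH3 and ADH4 had differences of 0.93, 0.70 and 0.88 with adjusted p of 0.176, 0.222 and 0.0957.

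Between the double-degron and RAP1-AID strains no member was called with edgeR and spike-in scaling, where 1.5% of genes were positive and 9.79% negative. ADH1 differed by 0.39 ± 0.44 (edgeR adjusted p = 0.620), PDC1 by 0.60 ± 0.42 (adjusted p = 0.369) and ADH5 by -0.52 ± 0.48 (adjusted p = 0.531). Without double-degron DMSO replicate 1 the differences were 0.78 for ADH1 and 0.92 for PDC1, neither called. With TMM scaling PDC6 was called negative, at -1.07 (6.59% of genes, 5.87% positive), while PDC1 (0.97 ± 0.11, edgeR adjusted p = 7.91e-07) and ADH1 (0.77 ± 0.18, adjusted p = 0.00152) passed the adjusted p but not the fold minimum. PDC1 was called positive with S. cerevisiae size factors (1.05) and with the replicate block and TMM (1.02), so whether its IAA effect differed between these strains depended on the scaling. Against the STH1-AID strain no member was called either (1.28% of genes positive and 1.28% negative), and ADH1 was at -0.94 ± 0.44 (adjusted p = 0.271). ADH1 was called with TMM scaling, at -1.15 (5.77% of genes negative, 3.15% positive), and with spike-in scaling without STH1-AID DMSO replicate 3 (-1.35). The unadjusted p was under 0.05 for 1 member in the first of these contrasts (PDC6) and 1 in the second (ADH1), and DESeq2 called 0 in both.

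The 3 degron strains with DMSO were compared with WT, and these comparisons share the same 3 WT libraries. They also share their DMSO libraries with the IAA comparisons, so a high DMSO library raises the value against WT and lowers that of IAA. ADH5 was the member that stood apart: it had 135, 75.2 and 69.4 normalised counts in WT and 306, 299 and 349 in RAP1-AID DMSO, so all RAP1-AID libraries were above all WT libraries. The log2 fold change was 1.76 ± 0.35 (SE; edgeR adjusted p = 2.23e-05) with spike-in and 1.10 with TMM scaling (adjusted p = 0.00944), and was called in 6 of 6 fits without a library (1.58 to 2.13). In double-degron DMSO cells ADH5 was called at 1.13 ± 0.35 (edgeR adjusted p = 0.0196), but not with TMM scaling (0.96), nor without WT replicate 2 (1.00) or 3 (0.96), nor without double-degron DMSO replicate 1 (0.83) or 2 (1.01). DESeq2 did not call it either (1.14, adjusted p = 0.122). In STH1-AID DMSO cells it was at 1.18 ± 0.35 (edgeR adjusted p = 0.0538) and was called without WT replicate 1 (1.56) or STH1-AID DMSO replicate 1 (1.37) or 2 (1.47). WT replicate 1 was itself higher than its replicates for ADH5, and 0.55 remained in STH1-AID without STH1-AID DMSO replicate 3.

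ADH1 had 196232, 200096 and 187188 normalised counts in WT, 116294, 116458 and 144191 in RAP1-AID DMSO and 164656, 91824 and 78624 in double-degron DMSO. The RAP1-AID libraries were all below WT, but the log2 fold change of -0.63 ± 0.31 passed neither threshold with spike-in scaling (edgeR adjusted p = 0.117). With TMM scaling ADH1 was called lower, at -1.22 ± 0.13 (adjusted p = 1.18e-06). In the double-degron strain ADH1 was at -0.80 ± 0.31 (edgeR adjusted p = 0.102), and without double-degron DMSO replicate 1 at -1.19, which was called. ADH4 was higher in RAP1-AID DMSO cells at 0.86 ± 0.31 (edgeR adjusted p = 0.0314), under the fold minimum, and passed it at 1.02 without WT replicate 2.

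PDC6 had 6, 7 and 2 raw reads in WT, and the WT library with 2 reads was the single library of the 21 at or under 3. In double-degron DMSO cells it had 21, 22 and 18, a log2 fold change of 1.51 ± 0.57 (edgeR adjusted p = 0.0892), which was called with TMM scaling (1.48, adjusted p = 0.00129) and without double-degron DMSO replicate 3 (1.76). ADH2 in STH1-AID DMSO cells was at 1.14 ± 0.39 (adjusted p = 0.171) and was called with TMM scaling (1.03, adjusted p = 0.00473). PDC1 differed from WT by -0.12, 0.05 and -0.56 in the STH1-AID, RAP1-AID and double-degron strains with spike-in scaling, and by -0.23, -0.47 and -0.57 with TMM scaling. None was called, and the RAP1-AID value changed sign. PDC5 lay between 0.11 and 0.58, and ADH3 between -0.61 and 0.16, over the 3 strains with spike-in scaling. With TMM scaling ADH3 was at -0.0086, -0.64 (edgeR adjusted p = 6.40e-05) and -0.67 (adjusted p = 3.44e-05) in the same order of strains, the first with its sign changed and the others under the fold minimum.

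In counts, edgeR called 0 of 8 members in STH1-AID DMSO against WT (1.04% of genes higher, 0.352% lower), 1 was higher in RAP1-AID DMSO (11.9% higher, 0.895% lower) and 1 higher in double-degron DMSO (5.21% higher, 1.71% lower). The unadjusted edgeR p in STH1-AID DMSO against WT was under 0.05 for 2 members, ADH2 and ADH5, and DESeq2 called 0. TMM scaling gave 1 higher in STH1-AID (1.2% higher, 0.56% lower), 1 higher and 1 lower in RAP1-AID (4.59% and 2.48%) and 1 higher in double-degron (6.27% and 1.84%). The median of all genes with spike-in scaling was 0.11, 0.52 and 0.01 in the 3 comparisons.

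**Figure D3:**
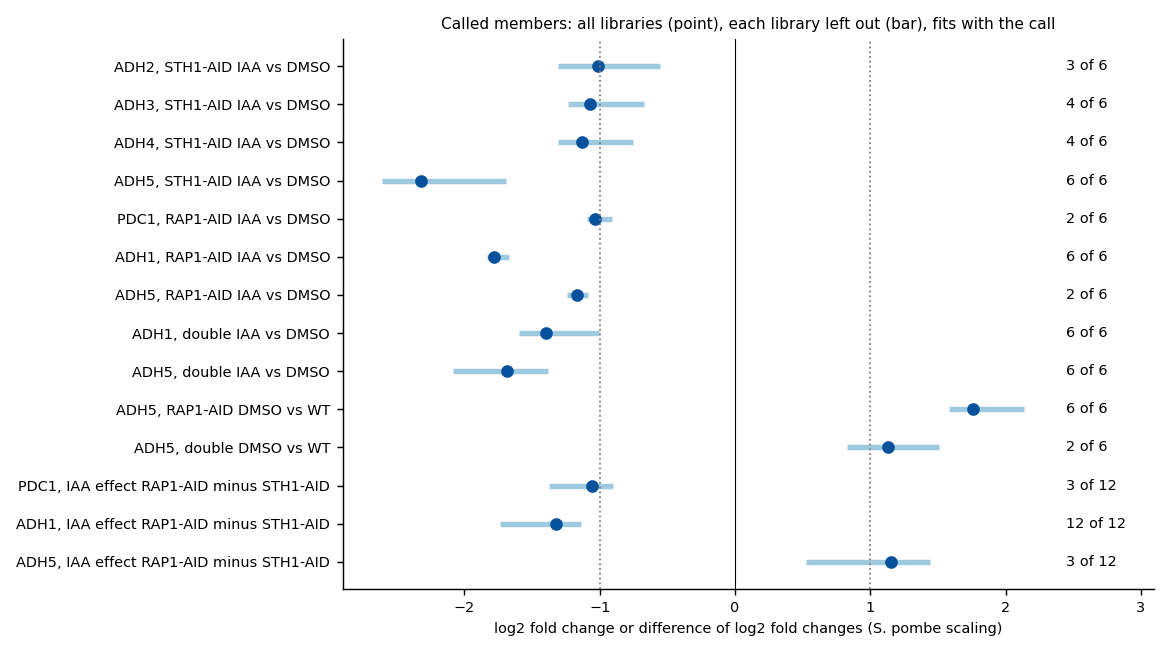
Log2 fold change (or difference of log2 fold changes between strains, for the rows named IAA effect) of each called member with spike-in scaling: the fit with all libraries (point), the range over fits that leave out each library of the groups compared in turn (bar), and how many of these fits made the call; dotted lines mark the fold minimum and double stands for the double-degron strain. ADH1 in RAP1-AID cells keeps its call in 6 of 6 fits with a range of -1.84 to -1.67, and PDC1 in the same comparison in 2 of 6.

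Ratios within a library do not depend on how libraries are scaled. The log2 ratio of ADH1 to PDC1 per kilobase was -1.20, -1.19 and -1.22 in RAP1-AID DMSO and -1.93, -1.99 and -1.96 in RAP1-AID IAA. The mean difference of IAA from DMSO was -0.75 there and -0.95 in double-degron cells, which went from -0.69, -0.92 and -0.72 to -1.73, -1.71 and -1.75. In STH1-AID cells it went from -0.25, -0.42 and -0.14 to -0.65, -0.81 and -0.68, a mean difference of -0.44. None of these 3 pairs of groups overlapped, and each gave a two-sided exact permutation p of 0.1 (adjusted p = 0.129 over 18 comparisons), the smallest that 3 libraries against 3 can give. WT libraries were at -0.02, -0.80 and -0.64. RAP1-AID DMSO was below WT in all libraries by 0.72 (exact permutation p = 0.1), while STH1-AID and double-degron DMSO overlapped with WT (exact permutation p = 0.5 and 0.4).

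ADH1 made up 91.2% ± 0.780 (SD, n = 3) of the summed per-kilobase counts of ADH1 to ADH5 in WT. This share was 86.4%, 86.9% and 86.2% in RAP1-AID DMSO and 70.4%, 70.8% and 70.0% in RAP1-AID IAA, a mean difference of -16.1 percentage points. ADH3 made up most of the rest. In double-degron cells the mean difference was -6.67 points, from 89.1%, 88.2% and 89.3% to 81.5%, 80.0% and 85.1%, and in STH1-AID cells 3.05 points, from 91.2%, 90.5% and 91.1% to 94.3%, 94.2% and 93.4%. DMSO and IAA did not overlap in any of the 3 strains (exact permutation p = 0.1, adjusted p = 0.129), and the difference between strains was not tested. PDC1 was 99.7% to 99.9% of the summed counts of the 3 decarboxylase genes in every library. It was lowest in RAP1-AID IAA, at 99.74%, 99.75% and 99.77%, where DMSO libraries had 99.86%, 99.86% and 99.85% (exact permutation p = 0.1), the rest being PDC5 and PDC6.

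**Figure D4:**
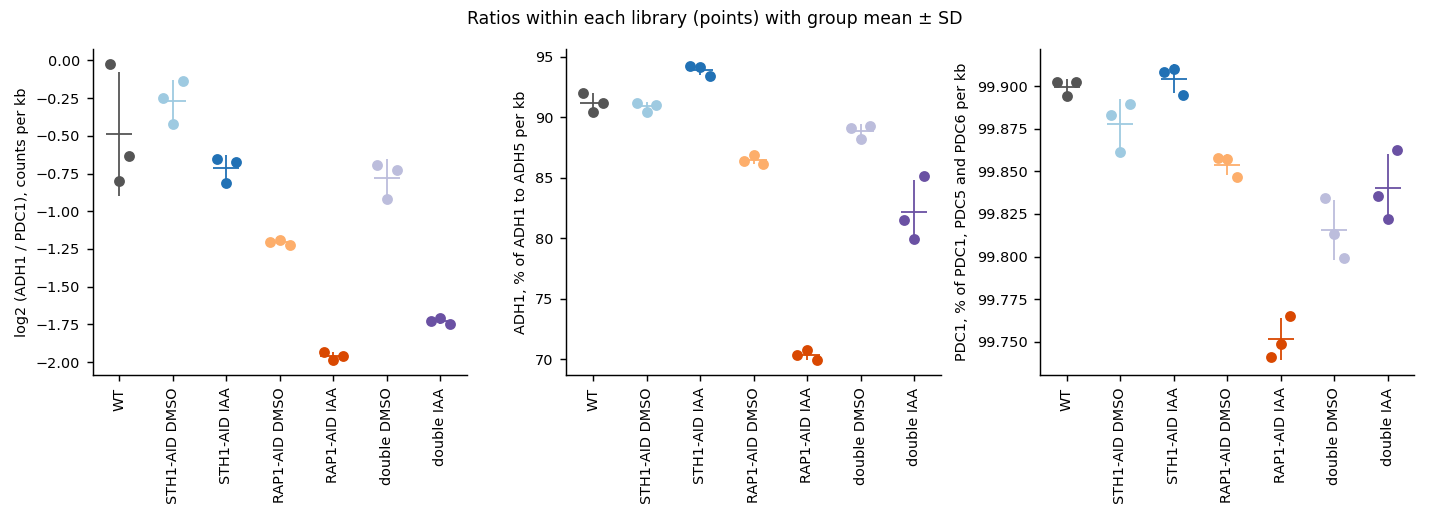
Log2 ratio of ADH1 to PDC1 (left), ADH1 as a percentage of ADH1 to ADH5 (middle) and PDC1 as a percentage of PDC1, PDC5 and PDC6 (right), from counts per kilobase, for each library (points) with group mean ± SD; percentage axes do not start at 0, and double stands for the double-degron strain. RAP1-AID IAA has the lowest value in all 3 panels (means of -1.96, 70.4% and 99.8%), and WT spreads widely in the left panel.

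Other genes of the pathway were counted for context, from lists chosen with earlier results of these data known. Of 24 other enzymes of pyruvate, acetaldehyde and alcohols, IAA raised 1 and lowered 3 in RAP1-AID cells (median log2 fold change -0.34, all genes -0.26), raised 5 and lowered 7 in STH1-AID cells (median -0.31, all genes -0.84) and raised 2 and lowered 7 in double-degron cells (median -0.41, all genes -0.67). Of all genes, 0.4% were called higher and 4.09% lower in RAP1-AID, 4.69% and 42.7% in STH1-AID, and 3.49% and 32.6% in double-degron cells. In RAP1-AID cells the called genes with the largest changes were SFA1 (-2.69), a formaldehyde and long-chain alcohol dehydrogenase, ARO10 (2.30), a decarboxylase of the Ehrlich pathway, and GPD1 (-2.16), the glycerol 3-phosphate dehydrogenase. SFA1 (-2.13) and ARO10 (1.58) were also called in double-degron cells, with GPD2 (-2.93). In STH1-AID cells they were ALD5 (-2.75), a mitochondrial aldehyde dehydrogenase, BDH2 (2.15) and PDB1 (-2.09), a subunit of pyruvate dehydrogenase. With TMM scaling 8 rose and 5 fell in STH1-AID cells (median 0.59), 3 and 2 in double-degron cells (median 0.28), and 1 and 3 in RAP1-AID cells. The TMM shares of all genes were 15.1% higher and 15.7% lower, 8.59% and 6.72%, and 0.991% and 3.05%, in the same order. Against WT, ARO10 was called higher in all 3 DMSO groups, by 1.79, 3.12 and 2.77 in STH1-AID, RAP1-AID and double-degron. ALD5 was called lower in the latter pair (-1.36 and -1.54) and ALD4 higher in STH1-AID (1.14, but not called with TMM scaling).

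Among 13 regulators of the members, TYE7, an activator of glycolytic genes, was called lower in RAP1-AID cells (-1.87) and was the 1 call there. In STH1-AID cells CAT8, an activator of glucose-repressed genes, was higher (1.70), and PDC2 (-1.48) and THI3 (-1.37), activators of the decarboxylase and thiamine genes, were lower, among 2 higher and 2 lower. The double-degron cells had 0 higher and 3 lower: TYE7 (-1.53), PDC2 (-1.29) and THI3 (-1.02). With TMM scaling PDC2 and THI3 were not called in either strain, and TYE7 was called in RAP1-AID cells alone. In all, TMM scaling gave 3 higher and 0 lower in STH1-AID, 0 and 1 in RAP1-AID, and 1 and 0 in double-degron cells. The TMM shares of all genes were 15.1% and 15.7%, 0.991% and 3.05%, and 8.59% and 6.72%. Over all genes, 4.69% were higher and 42.7% lower in STH1-AID, 0.4% and 4.09% in RAP1-AID, and 3.49% and 32.6% in double-degron cells with spike-in scaling. List medians were -0.33, -0.56 and -0.39 in RAP1-AID, STH1-AID and double-degron cells. Against WT, ADR1 was called higher in STH1-AID DMSO (1.28, and 1.14 with TMM scaling) and CAT8 in RAP1-AID DMSO (1.64, and 1.04 with TMM scaling). Of 12 glucose-repressed genes of ethanol and acetate use, the class to which ADH2 belongs, 4 rose and 0 fell with IAA in STH1-AID cells (median 0.66, all genes -0.84), led by FBP1 (1.96), SFC1 (1.79) and MLS1 (1.42). The double-degron cells had 3 higher, FBP1 (2.96), SFC1 (2.18) and MLS1 (1.17), and 0 lower (median 0.42, all genes -0.67). With edgeR none was called in the RAP1-AID cells (median -0.20, all genes -0.26), where 2 were lower at an unadjusted p under 0.05. With TMM scaling 8 and 6 of the 12 rose in STH1-AID and double-degron cells and none fell, where 15.1% and 8.59% of all genes rose. ADH2 itself was not higher with IAA in STH1-AID cells under either scaling.

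Lists for the conditions that ADH4, PDC5 and PDC6 are known to respond to were small. Of 7 zinc-responsive genes, FET4, a low-affinity metal transporter, was called lower with IAA in STH1-AID (-2.52) and double-degron cells (-2.23, with ZRC1 at -1.23, the latter not called with TMM scaling). ZRT1 (1.36) and ZRT2 (1.11), both zinc transporters, were called higher in RAP1-AID DMSO than in WT, but not with TMM scaling (0.83 and 0.56). The zinc medians with IAA, beside -0.84, -0.26 and -0.67 for all genes, were -0.39, -0.47 and -0.71 in STH1-AID, RAP1-AID and double-degron cells. Of 7 thiamine genes, THI80, the thiamine pyrophosphokinase, was called lower in STH1-AID cells (-2.05) and in double-degron cells (-1.27, not called with TMM scaling), where PHO3 was higher (1.13). Their medians were 0.14, -0.22 and -0.27. Against WT, THI4 was called higher in STH1-AID DMSO (2.03) and double-degron DMSO (1.79), and PET18 in double-degron DMSO (1.49), all also with TMM scaling. THI20 (1.22) and PET18 (1.21) were called higher in RAP1-AID DMSO, but not with TMM scaling (0.67 and 0.68). Of 9 sulphur-limitation genes, JLP1 (1.51) and MET14 (1.23) were called higher and MMP1 (-1.58) lower in STH1-AID cells, and MMP1 lower in double-degron cells (-1.13), with medians of 0.23, -0.30 and -0.27. MMP1 was not called with TMM scaling in either strain. The TMM medians in STH1-AID cells, 0.04 over all genes, were 0.49, 0.97 and 1.10 for the zinc, thiamine and sulphur lists, with 2, 3 and 5 genes higher and 1, 1 and 0 lower. Of all genes 15.1% were higher and 15.7% lower there. In RAP1-AID cells with IAA edgeR called 0 genes of these 3 lists, with 1 zinc gene, 0 thiamine genes and 1 sulphur gene lower at an unadjusted p under 0.05. JLP1 was called higher than in WT in RAP1-AID DMSO (2.11) and double-degron DMSO (2.29). The MET17 reads differed between the strains as given above, and their part in these values was not tested.

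Across the 21 libraries, the genes whose log2 CPM (TMM scaling) followed a member most closely by Pearson's r were found among the 6253 other genes tested. Libraries share groups and depth, so these are descriptions. ADH1 was followed by PGK1 (r = 0.979), a glycolytic kinase, FRE6 (0.978) and AVT4 (0.976), and PDC1 by SSA2 (0.975), TDH3 (0.966) and CDC19 (0.962), of which TDH3 and CDC19 encode glycolytic enzymes. ADH3 was closest to YHM2 (0.940), TIM17 (0.925) and GLN1 (0.922), and ADH4 to LST7 (0.916), YCR045W-A (0.911) and DAL7 (0.897). The values for the low members were smaller: ETP1 (0.884), YLR349W (0.879) and INO1 (0.875) for PDC5, YOR338W (0.879), PCT1 (0.875) and THI3 (0.863) for ADH5, GID10 (0.872), YCR064C (0.862) and EMP46 (0.840) for PDC6, and MRS6 (0.869), ARG56 (0.852) and YMR317W (0.849) for ADH2. Between members, r was 0.872 for PDC1 with ADH1, 0.782 for ADH1 with ADH3 and 0.747 for ADH4 with ADH5.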

How the data were processed

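Polyadenylated RNA of 21 libraries was sequenced with stranded TruSeq libraries and 101-base paired reads. The deposited values are raw counts of fragments per protein-coding gene: the authors trimmed reads with cutadapt 1.9.1, aligned them without splicing with BWA 0.5.9-r16 to the S. cerevisiae (R64) and S. pombe (ASM294v2) genomes, and counted uniquely mapped fragments by strand with featureCounts (Subread 1.5.1). A fragment over several genes counted for each. Of the columns of per-library values, 0 lay outside the samples. The labels call replicates biological, and chi-square tests of their counts found no duplicated library (2.89 to 94.0 per degree of freedom).

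Counts were tested with edgeR 4.0.16 (R 4.3.3) by quasi-likelihood F-tests, with library sizes from the spike-in (size factors computed on S. pombe counts as medians of ratios), 1 coefficient per group, 7 in all, and edgeR's filter on low counts. P-values were adjusted by Benjamini-Hochberg over the 6254 genes kept. Calls needed both an adjusted p under 0.05 and a log2 fold change beyond 1, and the SE was the fold change divided by the root of F. Shares and ratios used counts per kilobase of coding sequence and two-sided exact permutation tests, for which the smallest p is 0.1 with 3 libraries against 3. On simulated counts for the STH1-AID IAA comparison, 191 of 200 changed genes were called, with 5 false calls among 6196 genes. In the data, 2671 of 6254 genes were called lower in this comparison, and recovery with that many changed genes was not tested. Recovery of genes near the fold minimum was not tested either.

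The alternatives were TMM scaling, S. cerevisiae size factors, total S. pombe counts, DESeq2 1.42.0 (Wald test with S. pombe size factors), no filter on low counts, no fold minimum, the groups compared alone, the replicate number as a block (also with TMM), leaving out each library, and raw counts in place of counts per kilobase. Same-numbered DMSO and IAA libraries of the STH1-AID RAP1-AID strain deviated together (r = 0.518, 0.700 and 0.663), a pairing that comes from the data and not from the labels. All 8 members were named in each comparison of IAA with DMSO, as were up to 3 called genes of each list with the largest changes. Against WT and between strains only a part of the members was named. Called genes of the glucose-repressed list against WT were left out apart from ALD4, as were all list genes for the differences between strains. The 3 genes most like each member in log2 CPM (prior count 2) were also named. The members and lists were chosen with earlier results of these data known. Sequences came from the R64 RefSeq genome and were handled with Biopython 1.88. Other analysis used Python 3.11.15, pandas 2.3.3, numpy 2.4.6, scipy 1.17.1 and matplotlib 3.10.9.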

Additional observations from a re-analysis of the deposited data

Results flagged for a closer look

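The effect of IAA differed between the RAP1-AID and STH1-AID strains for 3 members, by a test of the difference itself (RAP1-AID minus STH1-AID, edgeR). ADH1 differed by -1.33 on the log2 scale (SE 0.44, adjusted p = 0.00899), PDC1 by -1.06 (SE 0.43, adjusted p = 0.0364) and ADH5 by 1.15 (SE 0.49, adjusted p = 0.0488). The PDC1 and ADH5 differences were each called in 3 of 12 fits that left out a library, as given above.

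Shares within a library moved in opposite directions in different strains, with every IAA library on one side of every DMSO library, and here the difference between strains was not tested. The share of ADH1 among ADH1 to ADH5 was 3.05 percentage points higher with IAA in STH1-AID cells, whereas it changed by -16.1 points in RAP1-AID and by -6.67 points in STH1-AID RAP1-AID cells. The share of PDC1 among PDC1, PDC5 and PDC6 was 0.0265 points higher in STH1-AID cells and changed by -0.102 points in RAP1-AID cells.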

How the results depend on the processing

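Most limits concern scaling: spike-in values take up differences in the amount of spike-in between libraries, and TMM or S. cerevisiae size factors take up any change shared by all genes. The cause of each change of call or direction was not tested. Depth limits PDC6, with 2 to 25 reads in a library. Pathway lists were counted with spike-in and TMM scaling alone, and 41 of their counts moved by over 1.5 times with TMM while 67 did not.

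In numbers of members called, IAA in STH1-AID cells gave 1 lower in place of 4 with TMM scaling, S. cerevisiae size factors or the replicate block with TMM. The same 3 settings gave, for IAA in RAP1-AID cells, 1 higher in place of 0 and 1 lower in place of 3, for RAP1-AID DMSO against WT 1 lower in place of 0, and for the IAA effect of double-degron minus STH1-AID 1 negative in place of 0. IAA in double-degron cells gave 1 lower in place of 2 with TMM, the block or both, and 0 with S. cerevisiae size factors. STH1-AID DMSO against WT gave 1 higher in place of 0 with TMM, S. cerevisiae size factors or total S. pombe counts, RAP1-AID DMSO against WT 2 in place of 1 with no fold minimum, and double-degron DMSO against WT 0 in place of 1 with DESeq2, the groups compared alone, and the block with or without TMM. The positive call of RAP1-AID minus STH1-AID was lost (0 for 1) with TMM, S. cerevisiae size factors, DESeq2 and the block with TMM. For double-degron minus RAP1-AID, 1 was positive with S. cerevisiae size factors and the block with TMM, and 1 negative with TMM and the block with TMM, in place of 0.

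Of the log2 fold changes of members under all alternatives other than leaving out a library, 459 kept direction and side of the threshold, 43 changed sign, 18 gained and 32 lost a call. For the differences between strains, this count took only members called in that difference or in an IAA comparison that enters it. With TMM, S. cerevisiae size factors and the replicate block with TMM in turn, the log2 fold change with IAA in STH1-AID cells was 0.55, 0.54 and 0.49 for PDC5, 0.68, 0.67 and 0.63 for PDC6, and 0.46, 0.45 and 0.40 for ADH1, and for IAA in RAP1-AID cells 0.22, 0.18 and 0.16 for ADH2 and 0.074, 0.026 and 0.0104 for ADH4, with 0.035 for PDC5 under TMM. In double-degron cells they were 0.26, 0.30 and 0.20 for PDC1, 0.054, 0.084 and 0.0033 for PDC6, 0.40, 0.43 and 0.33 for ADH2, and 0.18, 0.21 and 0.12 for ADH3, with 0.044 and 0.078 for PDC5 under the first pair. STH1-AID DMSO against WT gave -0.031, -0.038 and -0.0097 for ADH1 and -0.0086, -0.016 and -0.0017 for ADH3, and RAP1-AID DMSO against WT -0.47, -0.46 and -0.45 for PDC1. Total S. pombe counts gave -0.0019 for PDC1 with IAA in STH1-AID cells and 0.013 for ADH2 in RAP1-AID DMSO against WT, which was 0.038 with the block. ADH4 in double-degron minus STH1-AID was 0.22 with spike-in scaling and -0.0004 with TMM. Outside this count, TMM also changed the sign of PDC5 in RAP1-AID minus STH1-AID, from 0.0085 to -0.51 (edgeR adjusted p = 0.00219). In double-degron minus RAP1-AID it did so for PDC5 (from -0.30 to 0.0096), ADH2 (from -0.22 to 0.17) and ADH3 (from -0.15 to 0.21), and PDC6 gained its call there.

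Leaving out each library gave 1 to 4 members lower for IAA in STH1-AID cells, 1 to 3 for IAA in RAP1-AID cells, 0 to 1 higher in STH1-AID, 1 to 2 in RAP1-AID and 0 to 2 in double-degron DMSO against WT, the last with 0 to 1 lower, 0 to 2 positive and 1 to 2 negative for RAP1-AID minus STH1-AID, and 0 to 1 negative for double-degron minus STH1-AID. Ranges that crossed 0 were -0.13 to 0.34 for PDC1 and -0.23 to 0.0141 for PDC6 (IAA, STH1-AID), -0.19 to 0.0071 for ADH2 (IAA, RAP1-AID), -0.52 to 0.058 for ADH2 (IAA, double-degron), and, in STH1-AID DMSO against WT, -0.44 to 0.070 for PDC1, -0.11 to 0.34 for PDC5, -0.25 to 0.36 for ADH1 and -0.23 to 0.33 for ADH3. In RAP1-AID DMSO against WT they were -0.14 to 0.24 for PDC1, -0.28 to 0.40 for ADH2 and -0.22 to 0.016 for ADH3, and for ADH4 in double-degron minus STH1-AID -0.15 to 0.47. Between strains they were also -0.22 to 0.17 for PDC5 (RAP1-AID minus STH1-AID) and -0.44 to 0.15 for ADH2 and -0.35 to 0.24 for ADH3 (double-degron minus RAP1-AID). The ADH1 share in STH1-AID DMSO against WT, -0.309 points with all libraries, ranged from -0.683 to 0.0954. Shares and ratios kept direction in all 36 results with raw counts or the block, where 3 pairs allow no exact p under 0.25.

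Same-numbered DMSO and IAA libraries correlated at 0.098, 0.221 and 0.213 in the STH1-AID and 0.142, 0.091 and 0.129 in the RAP1-AID strain, below 0.1 in 1 pair each, so their numbers were not taken to pair them. Each library correlated best with its own number, a hint from the data and not the design. With the block ADH2 in STH1-AID cells was at -0.95 and not called. PDC6 could not be fitted against WT in the STH1-AID and RAP1-AID strains with the block or the groups compared alone.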
